A study of Mus musculus with 8 samples.

Results

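Processed pseudogenes of ribosomal proteins are copies of ribosomal protein mRNAs that were reverse transcribed and inserted elsewhere in the genome, without introns. Ribosomal protein mRNAs are abundant and their genes have left large families of such copies in mammalian genomes, most of which are thought to make no protein. A copy that has gathered few base changes resembles the mRNA of its parent gene so closely that a short sequencing read can match both. Counts given to a pseudogene and to its parent are therefore uncertain wherever the sequences are alike.

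The data were bulk mRNA-seq counts of CD4+ T cells, the helper T cells, from the spleen of mice with the genotype WT. In 4 libraries the cells had been given dimethyl succinate, a cell-permeable ester of the metabolite succinate, for 3 days. The 4 other libraries had been given vehicle, which the file header calls DMSO. Whether the libraries came from separate animals or cultures was not given in the sources used here, so the p-values speak only for the spread among these 8 samples, part of which may be technical. In bulk RNA, fewer cells of a type and less RNA per cell cannot be told apart.

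Of 54532 genes listed, 283 had the biotype processed pseudogene and a name that starts with Rpl or Rps and holds -ps. The 74 pseudogenes described here were chosen by their summed count, at least 100 over the 8 libraries. The other 209 stayed under that sum, and 121 of them had no count in any library. The cut at 100 counts rested on level alone, without regard to treatment, so the levels are a description. The gene set itself was taken up with earlier results of these data known. Rpl19-ps1 with 106 counts, Rpl31-ps9 with 106 and Rps12-ps26 with 107 lay just inside, and Rpl30-ps1 with 94, Rps12-ps24 with 87 and Rpl36-ps3 with 86 lay just outside. The 74 copies go back to 40 parent genes, the gene whose name stands before -ps. Rpl17 had 5, Rpsa 4, a further 6 parents 3 each, 15 parents 2 each and 17 parents 1 each. Copies of large-subunit genes (Rpl) made up 43 and copies of small-subunit genes (Rps, Rpsa) 31.

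Total counts per library ran from 14663698 to 16688854 with dimethyl succinate and from 13407295 to 15738869 with vehicle. Vehicle replicate 4 stood apart: its mean correlation with the other libraries was 0.981, against 0.989 to 0.991 for the others, and its mitochondrial share of counts was 0.252%, against at least 1.16% in every other library. Results that rest on it are given with and without it. The summed CPM of 7 T cell markers ran from 1918 to 2046 with dimethyl succinate and from 1564 to 1994 with vehicle. Markers of 8 other cell types summed to at most 9.60 CPM in any library, and Siglech, of dendritic cells, and S100a9, of neutrophils, had no count. The part of other cells in the results was not tested.

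The label of processed pseudogene holds for the sequences, while the parent in the name is not always the closest gene. Rpl36a-ps3, described below, is such a case and was kept as a copy of Rpl36a in all comparisons. In the GENCODE M21 annotation of the mouse genome (build GRCm38) each of the 74 is 1 exon long, and 60 align to the parent mRNA without a gap. Identity to the parent had a median of 99.3% and ran from 87.5% to 100%. Of the 74, 9 were identical to the parent over the aligned bases, 40 had 1 to 5 differences and 25 had more. The reading frame of the parent was open over its full length in 48, and in 9 the start codon was not ATG or lay outside the alignment. In the other 17 the open frame was shorter than that of the parent. These include copies with an early stop and copies whose listed sequence ended before any stop. The copies lie on 20 chromosomes, with 8 on X and 2 on the chromosome of their parent. Outside any other gene lay 42, inside an intron of a gene on the opposite strand 17 and inside an intron of a gene on the same strand 12. Rpl19-ps11 and Rpl19-ps1 share exon bases with other annotated genes on the same strand, and Rps12-ps4 shares some with Nphs1 on the opposite strand.

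4 sets of sequences show how copies compare with the parent of their name, with few or no differences in all but the last. They are stretches of GENCODE M21 transcripts on GRCm38, read 5′ to 3′ on the strand of the gene, with capitals at bases that differ from the parent. Positions count from 1 at the A of the parent's ATG. The first is from Rpl17-ps10, the copy with the smallest p between the groups, at chr7:72648757-72649311 on the minus strand, outside other genes. It differs from the Rpl17 coding sequence by G404A, C417T, T491C and C547A only, and the stretch printed, from 395 to 425, at chr7:72648887-72648917, holds the first pair.
Rpl17-ps10: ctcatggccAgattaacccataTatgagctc

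The second set is the pair of Rps10 copies, whose FPKM stood above that of Rps10, a small-subunit gene. All 5 differences of Rps10-ps2 (T393C, T408C, C437G, A438G and G473A) lie between positions 385 and 480, printed here, at chr16:20822161-20822256 on the minus strand. Rps10-ps1 shares only A438G with it and also has G418A in this stretch, at chr3:95622662-95622757 on the plus strand. Rps10 itself lies at chr17:27630418-27636669 on the minus strand.
Rps10-ps2: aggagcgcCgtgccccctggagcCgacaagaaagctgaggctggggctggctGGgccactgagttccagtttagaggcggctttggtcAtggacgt
Rps10-ps1: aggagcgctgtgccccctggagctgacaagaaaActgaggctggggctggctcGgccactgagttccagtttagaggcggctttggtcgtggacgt
Rps10: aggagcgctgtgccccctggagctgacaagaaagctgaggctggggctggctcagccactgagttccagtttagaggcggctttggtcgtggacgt

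The third set is the Rps13 family, shown because its copies stood at different values between the groups while 1 of them cannot be told from the parent by sequence. Rps13-ps2 (chr7:88530764-88530808, minus strand) matches Rps13 (chr7:116331505-116334195, minus strand) at every base of its length. Rps13-ps1 (chr8:87047810-87047854, plus strand) matches it in the stretch from 91 to 135. Rps13-ps4 (chr8:119602491-119602535, minus strand) has C106A and G121C there. Outside the stretch, Rps13-ps1 and Rps13-ps4 share T411C.
Rps13-ps2: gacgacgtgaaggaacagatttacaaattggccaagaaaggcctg
Rps13-ps1: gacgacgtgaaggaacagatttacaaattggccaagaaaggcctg
Rps13-ps4: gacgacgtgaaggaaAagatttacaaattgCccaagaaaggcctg
Rps13: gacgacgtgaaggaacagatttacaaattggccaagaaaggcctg

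The fourth is Rpl36a-ps3, whose name points to one gene and whose bases match another. It had 40 differences from Rpl36a, but 1 difference in 321 bases from Rpl36al, a gene that encodes a closely related large-subunit protein. The first 90 coding bases of Rpl36a-ps3 (chr6:136488807-136488896, plus strand) and of Rpl36al (gene at chr12:69182731-69184083, minus strand) are the same, and capitals mark the 14 bases at which both differ from Rpl36a.
Rpl36a-ps3: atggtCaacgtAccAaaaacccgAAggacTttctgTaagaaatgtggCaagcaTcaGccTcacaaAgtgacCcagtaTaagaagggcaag
Rpl36al: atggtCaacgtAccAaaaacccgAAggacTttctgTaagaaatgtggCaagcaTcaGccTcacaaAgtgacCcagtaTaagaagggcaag

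To measure how much of a copy a read could share, each pseudogene was divided into all its windows of 50 bases, and the windows found exactly in a transcript of the parent gene were counted. The read length was not given in the sources used here, and the windows were compared with annotated transcripts, not with the whole genome. A median of 70.1% of windows were found in the parent for the 74 copies, against 5.10% for the 209 copies under the threshold. Windows found in any other gene had a median of 83.3% for the 74 copies and 20.7% for the 209. In 16 of the 74 every window was found in another gene. In 60 at least 50% of the windows were found in the parent, and in Rpl36a-ps3 and Rps12-ps26 none. For Rpl36a-ps3, 81.6% of windows were found in Rpl36al.

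**Figure D1:**
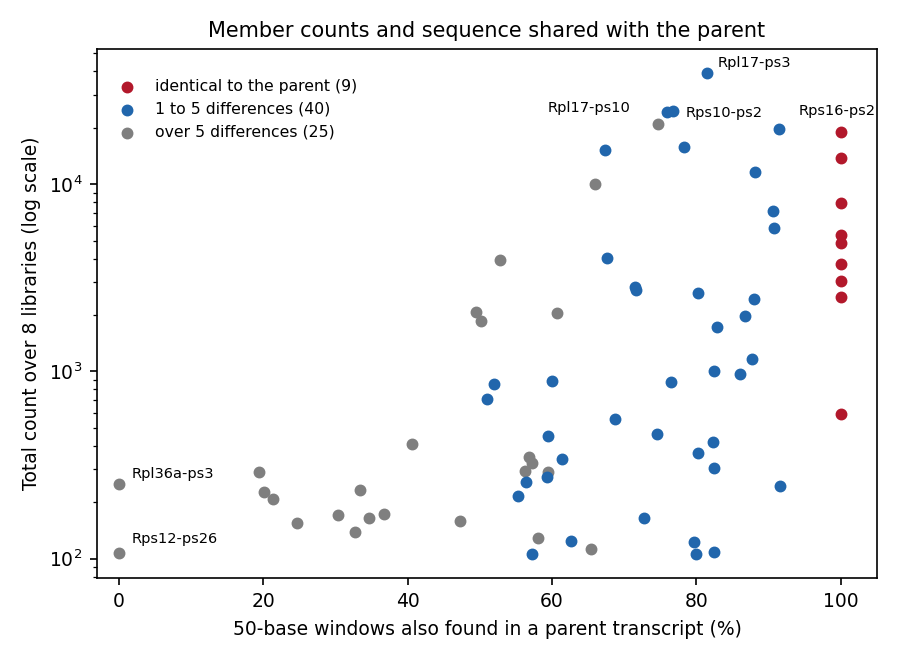
Each point is 1 of the 74 pseudogenes, with the share of its 50-base windows found in a parent transcript (%) on the horizontal axis, its total count over 8 libraries on a log scale on the vertical axis, and colour for the number of base differences from the parent. The 11 copies with at least 10000 counts lie at 66.0% or above on the horizontal axis, and Rpl36a-ps3 and Rps12-ps26 at 0% have 249 and 107 counts.

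Across the 74 copies the total count went with the share of windows found in the parent, with a Spearman correlation of 0.57 (n = 74). The correlation of count with identity was 0.51, and that with the parent's own count was -0.16. These are descriptions over copies that share libraries, and several share a parent.

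The 74 copies held 298419 counts, of which the top 10 held 68.4% and 24 held 90%. The median was 653 counts, 11 copies had at least 10000 and 43 had under 1000. Rpl17-ps3 had the most, with 39116, followed by Rps10-ps2 with 24607, Rpl17-ps10 with 24196, Rpsa-ps10 with 20887 and Rpl3-ps1 with 19788. Rpsa encodes the small-subunit protein also known as the laminin receptor, and Rpl3 a large-subunit protein near the peptidyl transferase centre. Rps16-ps2 had 18961, Rpl14-ps1 15761, Rpl21-ps15 15209, Rps6-ps4 13852 and Rpl23a-ps3 11597. Of these 10, Rps16-ps2 and Rps6-ps4 are identical to their parents. Rpl23a, the parent of Rpl23a-ps3, itself shares 55.3% of its coding bases with Tlcd1, which runs on the opposite strand, and whether counting used strand is not known from the sources used here.

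The copies together took 2552, 2393, 2349 and 2371 counts per 1e6 of the library total (CPM) with dimethyl succinate, and 2445, 2635, 2470 and 2497 with vehicle. The groups overlapped, because dimethyl succinate replicate 1 was above 3 of the 4 vehicle libraries. Set against the summed counts of the 40 parents, the copies held 6.20% ± 0.241 with dimethyl succinate and 6.27% ± 0.0342 with vehicle (SD, n = 4 each).

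Levels between a copy and its parent were compared in the authors' FPKM, which divides by gene length. In 3 copies the mean FPKM over 8 libraries was above that of the parent, in 26 it was 10% to 100% of it, in 24 it was 1% to 10% and in 21 under 1%. The listed gene length of a parent can be several times that of its copy, and in counts only Rps10-ps2 and Rps10-ps1 were above the parent, while 8 copies had 10% to 100% of the parent's count, 25 had 1% to 10% and 39 had under 1%. Rps10-ps2 stood at 406 ± 37.5 FPKM with dimethyl succinate and 410 ± 17 with vehicle, where Rps10 stood at 4.87 ± 0.447 and 5.31 ± 1.18 (SD, n = 4 each). That is an 80.3-fold higher level per length for the copy over the 8 libraries, with listed lengths of 496 bases for Rps10-ps2 and 2311 for Rps10, and in counts the copy had 1723% of Rps10. Rps10-ps1 stood 6.03-fold above Rps10 in FPKM, at 31.5 ± 3.49 with dimethyl succinate and 29.8 ± 6.05 with vehicle (SD, n = 4 each), and in counts it had 130% of Rps10.

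Rps10-ps2 had 24607 counts, where the median of the 74 copies was 653. Rps10 had 1428 counts in all, the lowest of the 40 parents, whose median was 93259 counts. Of its coding bases 92.1% are also annotated, on the same strand, as exons of RPS10-NUDT3, a read-through gene that joins it to the next gene and that is listed with 0 counts in every library. Whether the overlap bears on the Rps10 counts was not tested. The third copy above its parent in FPKM was Rpl21-ps15, at 249 ± 18.8 FPKM with dimethyl succinate and 271 ± 11.1 with vehicle, where Rpl21 stood at 57.3 ± 7.11 and 65.0 ± 8.03 (SD, n = 4 each), a 4.25-fold higher level per length. In counts the direction was the opposite: Rpl21-ps15 had 60.1% of the Rpl21 count, over listed lengths of 483 and 3400 bases. Of its windows 67.3% were in Rpl21 and 88.5% in Gm10240. Next in FPKM came Rpl17-ps3 at 85.1% of Rpl17 and Rpl21-ps8 at 58.6% of Rpl21, which had 61.3% and 8.18% of the parent's count.

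The comparison the design poses is dimethyl succinate against vehicle. Over all 8 libraries no copy and no parent passed edgeR's quasi-likelihood test at an adjusted p of 0.05, and neither did any other of the 13981 genes tested (0% called in each direction, smallest adjusted p 0.646). All 74 copies passed the low-count filter. At an unadjusted p under 0.05 in that test, 1 copy was higher and 11 were lower, where all genes gave 2.93% higher and 2.83% lower. DESeq2 called 1 copy, Rpl17-ps10, which was higher (0.0143% of genes called higher, adjusted p 0.0341), among 4 genes, and limma-voom called none.

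Most log2 fold changes of the copies lay below 0. They were above 0 for 21 of 74 (28.4%), where 49.6% of all genes were, and their median was -0.15, against -0.06 for the 40 parents and -0.00106 for all genes. Of the 43 large-subunit copies 10 were above 0, with a median of -0.16, and of the 31 small-subunit copies 11, with a median of -0.13. The parents were above 0 in 14 of 40, and all 81 cytosolic ribosomal protein genes in 29, with a median of -0.07. Other named processed pseudogenes, of which 60 were tested, were above 0 in 21, with a median of -0.06. All 649 tested processed pseudogenes were above 0 in 40.4%, with a median of -0.07.

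CPM below are scaled by TMM factors. The CPM of the groups did not overlap for 1 copy that was higher, Rpl17-ps10 (2.50% of all genes), and for 4 that were lower (2.32% of all genes), Rpl10a-ps1, Rps13-ps2, Rpl36-ps12 and Rpsa-ps9. The last 2 were picked after their values were seen.

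**Figure D2:**
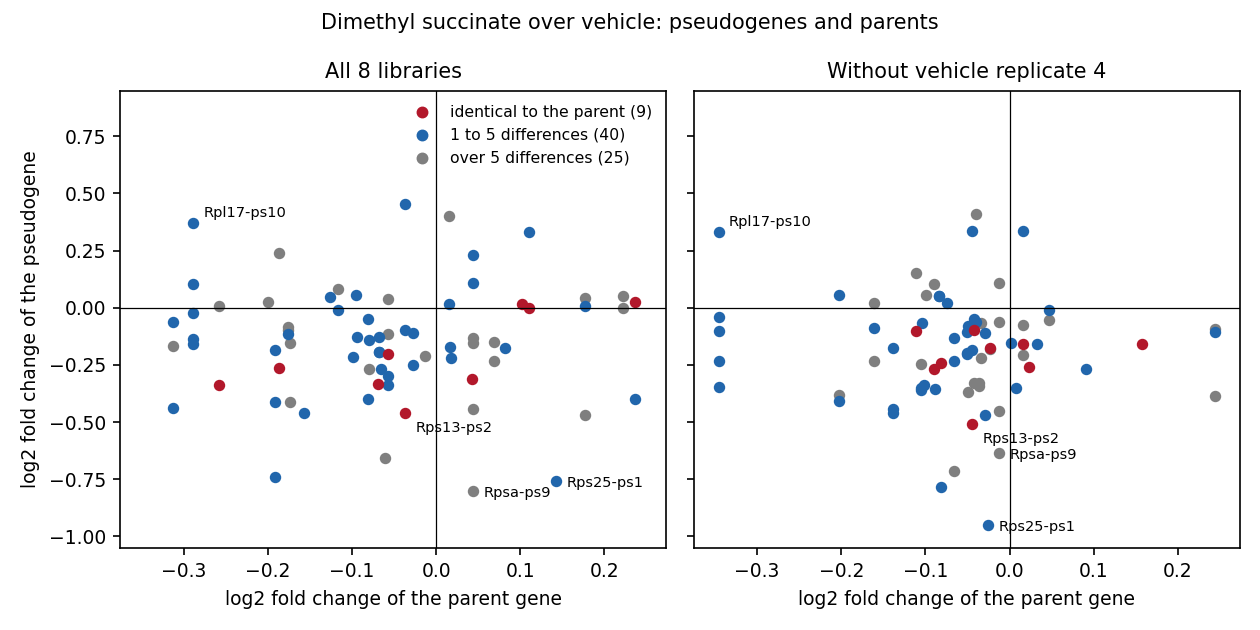
Log2 fold change of dimethyl succinate over vehicle for each of the 74 pseudogenes (vertical axis) and for its parent gene (horizontal axis), over all 8 libraries on the left and without vehicle replicate 4 on the right, coloured by base differences from the parent. Most points lie below the horizontal line at 0, 53 of 74 on the left and 61 of 74 on the right, and Rpl17-ps10 stands at the upper left in both.

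Without vehicle replicate 4, edgeR called 28 genes, 18 higher (0.126% of genes tested) and 10 lower (0.0703%), and 1 copy in each direction was among them. Rpl17-ps10 rose by 0.33 ± 0.056 on the log2 scale (SE, adjusted p 0.00767), and Rps13-ps2 fell by 0.51 ± 0.095 (SE, adjusted p 0.0141), both in edgeR's quasi-likelihood test. The parent Rpl17 fell by 0.35 ± 0.050 (SE, adjusted p 0.00198 in the same test), the 1 parent called. The log2 fold changes were then above 0 in 13 of 74 copies (17.6%), against 50% of all genes, with a median of -0.18. At an unadjusted p under 0.05, 1 copy was higher and 12 were lower, where all genes gave 4.43% and 4.12%.

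Rpl17 encodes a large-subunit protein that lines part of the tunnel through which the new peptide leaves the ribosome. Rpl17-ps10 stood at 226, 214, 241 and 214 CPM with dimethyl succinate, and at 189, 183, 162 and 159 CPM with vehicle. Every dimethyl succinate library lay above every vehicle library, and the log2 fold change over 8 libraries was 0.37 ± 0.072 (SE, adjusted p 0.646 in edgeR's quasi-likelihood test). Rpl17 itself stood at 513, 473, 437 and 487 CPM with dimethyl succinate, and at 599, 617, 605 and 513 CPM with vehicle. Vehicle replicate 4 lay at the level of the highest dimethyl succinate library, and the other vehicle libraries lay above all 4. The log2 fold change of Rpl17 over 8 libraries was -0.29 ± 0.076 (SE, adjusted p 0.715 in the same test).

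The copy and its parent stood on opposite sides of 0. Of the 506 windows of Rpl17-ps10, 75.9% were found in Rpl17 and 85.8% in some other gene, Rpl17 included. It shared windows with 48 other genes. How reads that match several genes were counted is not given in the sources used here. As a percent of the Rpl17 count, Rpl17-ps10 had 44.1%, 45.2%, 55.3% and 43.9% with dimethyl succinate, and 31.5%, 29.7%, 26.8% and 31.0% with vehicle. The ranges did not overlap. The ratio of a pair within 1 library does not depend on how libraries are scaled, and it was 1.58-fold higher with dimethyl succinate, a log2 difference of 0.66. An exact permutation test of this ratio, with 70 ways to assign the labels, gave a two-sided p of 0.0286, the smallest it can give, and this pair was singled out from earlier results of the same libraries, so the p is not independent evidence. Without vehicle replicate 4 the log2 difference was 0.68, with an exact p of 0.0571, the smallest that 35 assignments allow.

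The other Rpl17 copies were not called. Rpl17-ps3, on chromosome 12, differs from Rpl17 by G81T and G125A and stood at 331, 313, 303 and 286 CPM with dimethyl succinate, and at 297, 341, 312 and 406 CPM with vehicle. The groups overlapped and the highest value was that of vehicle replicate 4. Rpl17-ps5, on chromosome 5, stood at 21.3 ± 2.02 CPM with dimethyl succinate and 21.6 ± 7.59 with vehicle (SD, n = 4 each). Rpl17-ps8 on chromosome X and Rpl17-ps9 on chromosome 7 averaged 3.57 and 2.86 CPM with dimethyl succinate, and 3.32 and 3.20 CPM with vehicle. Rpl17-ps5 and Rpl17-ps8 share G183A. In all 3, picked after their values were seen, vehicle replicate 4 was the lowest of the 8 libraries.

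Summed over Rpl17 and its 5 copies, the level was 1096, 1030, 1011 and 1014 CPM with dimethyl succinate, and 1116, 1179, 1107 and 1093 CPM with vehicle. The lowest vehicle library, replicate 4, lay just under the highest dimethyl succinate library. The other vehicle libraries lay above all dimethyl succinate libraries. The 5 copies alone summed to 560 ± 24.8 CPM with dimethyl succinate and 540 ± 36.8 CPM with vehicle (SD, n = 4 each).

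**Figure D3:**
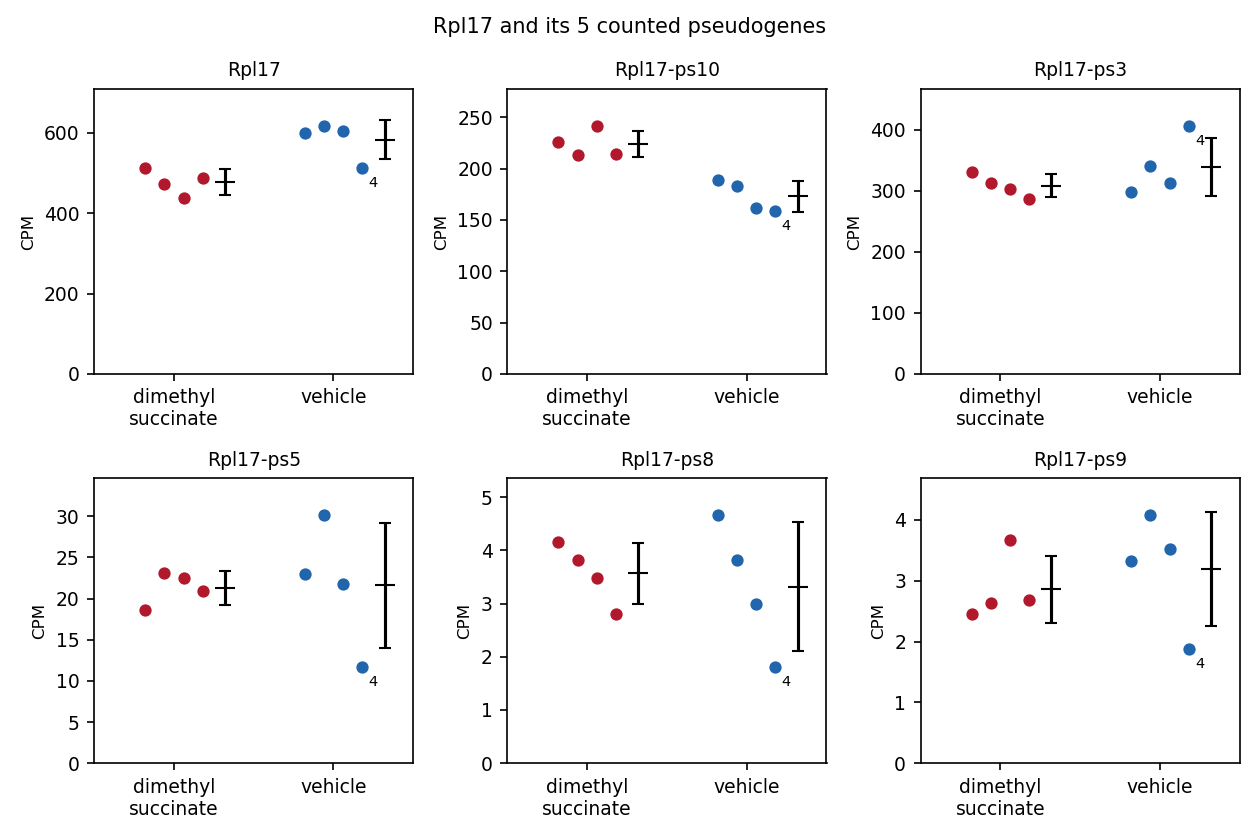
Level in CPM (vertical axis, from 0) of Rpl17 and its 5 pseudogenes in the 4 dimethyl succinate libraries (red, left) and the 4 vehicle libraries (blue, right), with the mean ± SD in black and vehicle replicate 4 marked. Rpl17-ps10 lies higher with dimethyl succinate, at 224 ± 13.0 CPM against 173 ± 14.9 with vehicle, and Rpl17 lower, at 477 ± 31.9 against 583 ± 47.7.

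Rps13 encodes a small-subunit protein, and its copy Rps13-ps2 had 16.5, 18.7, 17.7 and 17 CPM with dimethyl succinate, and 21.5, 26.5, 26.7 and 21.5 CPM with vehicle. The groups did not overlap, and the log2 fold change over 8 libraries was -0.46 ± 0.103 (SE, adjusted p 0.646 in edgeR's quasi-likelihood test). Rps13 itself was at -0.04 on the log2 scale, with 591 ± 37.8 CPM with dimethyl succinate and 607 ± 20.8 CPM with vehicle (SD, n = 4 each). All windows of Rps13-ps2 were found in Rps13, so no read within the copy could be assigned to it by sequence alone. Rps13-ps1, which was not within the naming rule, was at -0.10 and Rps13-ps4 at 0.45 ± 0.328 (log2 fold change and SE), with 164 counts in all.

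The ratio to the parent was computed in the same way for every copy. It was lower with dimethyl succinate for 48 of 74, with a median log2 difference of -0.12, and for 55 of 74 without vehicle replicate 4, with a median of -0.14. No such share is given here for other pairs, so these counts are not shown to be particular to the copies. The groups did not overlap for Rpl17-ps10, which was higher, and for 5 that were lower, Rpl10a-ps1, Rpl38-ps2, Rps13-ps2, Rps25-ps1 and Rpsa-ps9. Among 47 pairs of another named processed pseudogene and its parent, the groups did not overlap in 2 (4.26%), with both directions counted together. Rpl10a and Rpl38 encode large-subunit proteins, and Rpl38 is known in mouse for its part in the translation of Hox mRNAs. Rps25 and Rpsa encode small-subunit proteins.

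Rpl10a-ps1, identical to Rpl10a, had 4.09%, 4.32%, 3.92% and 3.62% of the Rpl10a count with dimethyl succinate, and 4.87%, 4.77%, 4.87% and 4.66% with vehicle. The vehicle libraries spread little and lay above all dimethyl succinate libraries. Rpl38-ps2, identical to Rpl38, had 21.2%, 19.8%, 19.2% and 17.2% of the Rpl38 count with dimethyl succinate, and 24.8%, 22.8%, 23.9% and 25.8% with vehicle. Its own CPM overlapped between the groups, at 27.7 ± 5.91 with dimethyl succinate and 34.3 ± 8.70 with vehicle (SD, n = 4 each). Rps13-ps2 had 3.03%, 3.07%, 3.06% and 2.68% of the Rps13 count with dimethyl succinate, and 3.62%, 4.16%, 4.44% and 3.60% with vehicle. These 3 copies are among the 9 without a base difference from the parent.

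The other pair had few counts. Rps25-ps1 had 17, 31, 28 and 31 counts with dimethyl succinate, and 48, 50, 43 and 23 with vehicle. Vehicle replicate 4 was within the dimethyl succinate range, and the log2 fold change was -0.76 ± 0.269 over 8 libraries and -0.95 without that library (adjusted p 0.106 in edgeR's quasi-likelihood test). Rps25 was low in the same library, so the ratios did not overlap, at 0.157% to 0.256% with dimethyl succinate and 0.379% to 0.465% with vehicle. Rpsa-ps9 had 30, 21, 19 and 19 counts with dimethyl succinate, and 31, 35, 29 and 47 with vehicle. Its ratio to Rpsa ran from 0.0421% to 0.0640% with dimethyl succinate and from 0.0737% to 0.130% with vehicle.

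**Figure D4:**
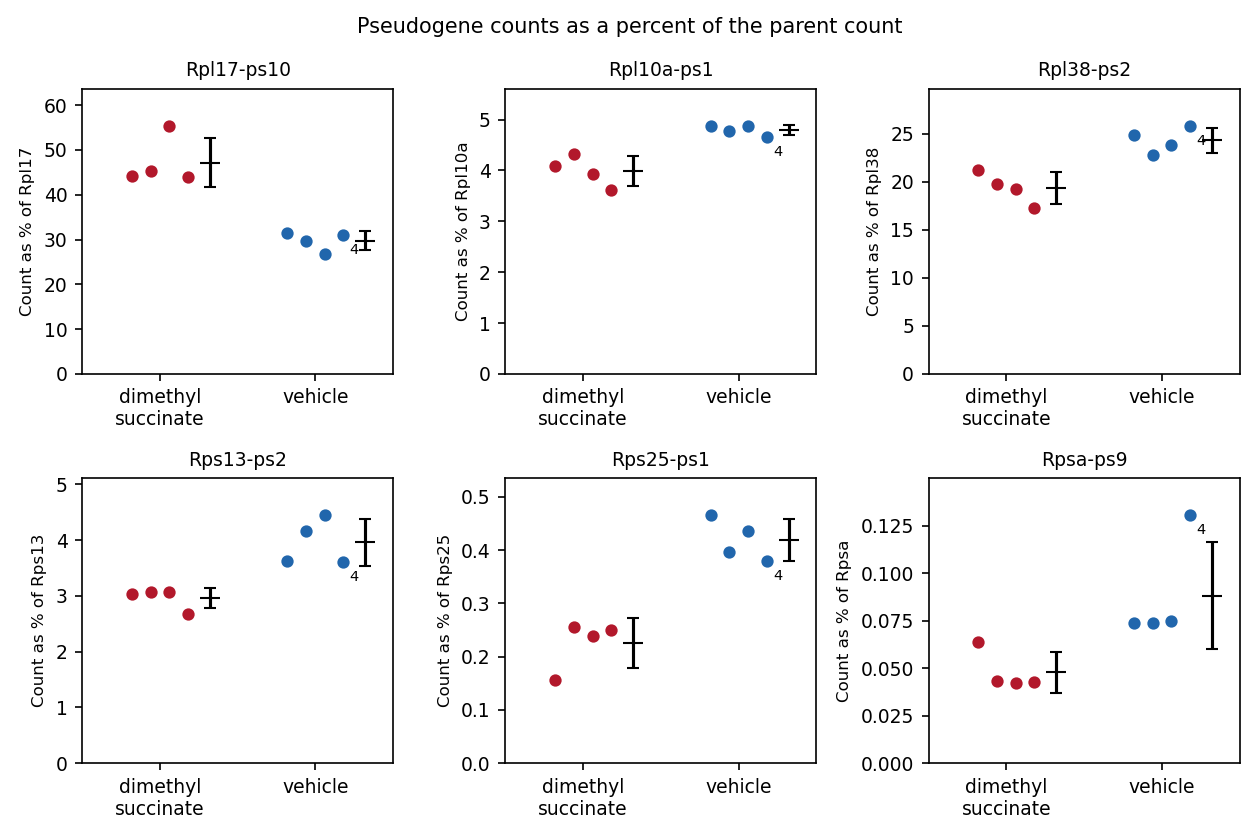
Count of the pseudogene as a percent of the count of its parent (vertical axis, from 0) in the 4 dimethyl succinate libraries (red, left) and the 4 vehicle libraries (blue, right), with the mean ± SD in black and vehicle replicate 4 marked, for the 6 pseudogenes whose groups did not overlap. Rpl17-ps10 lies higher with dimethyl succinate, from 43.9% to 55.3% against 26.8% to 31.5% with vehicle, and the other 5 lie lower.

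The remaining copies named are those with the smallest unadjusted p within 1 direction, over 8 libraries or without vehicle replicate 4. Over 8 libraries the lower ones, Rps12-ps4 and Rpl34-ps1, were at -0.44 ± 0.129 and -0.27 ± 0.112, and the higher ones, Rps19-ps3 and Rpl28-ps3, at 0.40 ± 0.270 and 0.33 ± 0.249 (log2 fold change ± SE). Rpl34-ps1 and Rpl28-ps3 met the rule only without vehicle replicate 4, where they were at -0.35 ± 0.089 and 0.33 ± 0.271. By edgeR's quasi-likelihood test the unadjusted p was 0.163 for Rps19-ps3 and 0.204 for Rpl28-ps3. Rps12-ps4 stood at 7.86, 7.70, 7.83 and 9.71 CPM with dimethyl succinate, and at 9.32, 11.3, 12.3 and 12.0 CPM with vehicle. The groups overlapped at 1 library of each. Rps12 was at -0.31 on the same scale, and 87.6% of the windows of Rps12-ps4 were found in Rps12. Rpl36-ps12 stood at 6.01, 6.62, 6.06 and 5.94 CPM with dimethyl succinate, and at 8.05, 8.47, 9.12 and 6.89 CPM with vehicle, without overlap, at -0.40 ± 0.129 on the log2 scale (SE). Its ratio to Rpl36 overlapped between the groups, and 51.9% of its windows were found in Rpl36. Of the most abundant copies, Rps10-ps2 was at -0.01, Rps16-ps2 at 0.01, Rpl14-ps1 at 0.05, Rpl21-ps15 at -0.12, Rpl17-ps3 and Rpl3-ps1 at -0.14, Rpsa-ps10 at -0.16 and Rpl23a-ps3 at -0.22 over 8 libraries. Without vehicle replicate 4, Rpl17-ps3 was at -0.039, Rpl3-ps1 at -0.079 and Rpsa-ps10 at -0.063, each nearer to 0, while Rps16-ps2 at -0.098 and Rpl14-ps1 at -0.048 lay on the other side of 0. Rps6-ps4, a copy of the gene for a target of the S6 kinases, was at -0.34 over 8 libraries and -0.10 without vehicle replicate 4.

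Vehicle replicate 4 was the lowest of the 8 libraries for 20 copies and the highest for 16, which is 48.6% of them, where it was extreme for 58.3% of all genes. Against the mean of the other vehicle libraries its log2 CPM was shifted by more than 0.5 in 24 copies (32.4%), against 22.4% of all genes and 43.5% of all processed pseudogenes tested. Rpl31-ps8, identical to Rpl31, had 364 counts there and 1049 to 1224 in the other vehicle libraries. Rpl31-ps9, on another chromosome, had 1 count there and 17 to 22 in the others, and the Rpl31 gene stood at 134 CPM there and at 596 to 671 CPM in the others. Rps6-ps4 had 2683 counts in vehicle replicate 4 and 1533 to 1635 in the others, and Rps6 was higher there too, by 0.52 on the log2 scale. Rpl31-ps8 was picked after its values were seen.

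This gave a second setting in which copies can be set beside their parents. The shift of vehicle replicate 4 had the same direction in copy and parent for 9 of the 9 identical copies, with a Spearman correlation of 0.93. It had the same direction for 25 of the 40 copies with 1 to 5 differences, with a correlation of 0.41, and for 14 of the 25 with more, with a correlation of 0.13. Every window of the 9 identical copies was found in the parent, so their reads cannot be assigned by sequence alone. Their counts may not be independent of the parent's, and how far this sets the agreement was not tested. The points share the same 4 libraries, and copies of 1 parent share the parent's value, so these are descriptions with no test. Copies with more differences also had fewer counts, with a median of 249 counts against 880 for 1 to 5 differences and 4825 for the identical copies, and the part of counting noise was not tested.

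**Figure D5:**
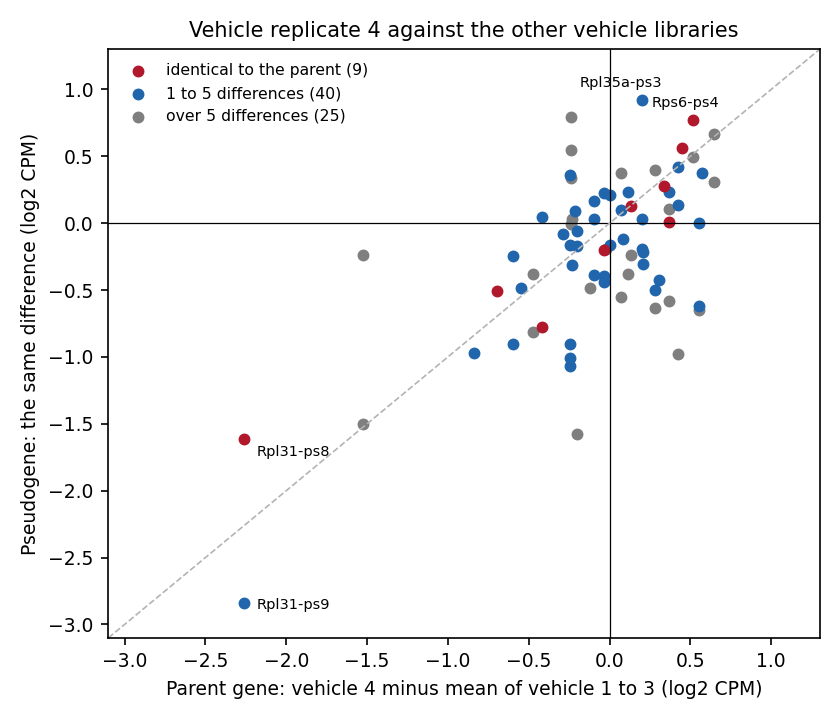
Difference in log2 CPM between vehicle replicate 4 and the mean of vehicle replicates 1 to 3, for each of the 74 pseudogenes (vertical axis) and its parent (horizontal axis), coloured by base differences from the parent, with the line of equality dashed. The 9 identical copies (red) lie on the same side of 0 as their parent, with Rpl31-ps8 at -1.62 where Rpl31 is at -2.26.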

How the data were processed

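Bulk mRNA-seq counts of mouse spleen CD4+ T cells were analysed for 4 dimethyl succinate and 4 vehicle libraries. Reads were aligned with HISAT2 2.0.5, per the submitters' processing notes. The counting tool, the annotation, the treatment of reads that match several places and the use of strand are not given in the sources used here, and each could move counts between a copy and its parent. The authors deposited 1 table with raw counts per gene and FPKM values per library, per the file headers. The deposited group means, taken as a signal since no unit is named, the deposited log2 fold changes and the deposited p-values of the authors were not used.

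The 74 copies, their parents and all gene lists were chosen with earlier results of these data known. Counts were tested with edgeR 4.0.16 in R 4.3.3 over all genes kept by filterByExpr, with TMM scaling, robust quasi-likelihood F tests, no covariate and Benjamini-Hochberg adjustment, two-sided. On counts simulated from these libraries the test recovered 195 of 200 genes changed 2-fold among genes of at least 10 CPM and called 18 of 13781 unchanged genes. The copies had log2 fold changes from -0.80 to 0.45 and a median of 653 counts, so this recovery does not speak for changes of their size. No library in the simulation was set apart as vehicle replicate 4 was. Ratios of copy to parent were taken as log2 of counts plus 0.5. The libraries were treated as unpaired. Deviations of same-numbered libraries had correlations from -0.01 to 0.13, and those of differently numbered libraries from -0.12 to 0.086. Such weak correlations cannot show whether the replicate numbers pair the libraries.

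Sequences came from GENCODE M21 on GRCm38. Of the genes matched by identifier, 99.17% had the same start or end there, and 73 of the 74 copies had the same position and strand. Copies were aligned with Biopython 1.88 to the parent. Named were Rpl17-ps10 and Rpl17, the 10 copies with the most counts, the 5 with the highest FPKM relative to the parent, the 3 with the smallest unadjusted p per direction with and without vehicle replicate 4, those nearest to the threshold, those with the most and fewest shared windows, and their parents. Alternatives were DESeq2 1.42.0, limma-voom in limma 3.58.1, other scalings, filters, thresholds of 50 and 200 counts, the replicate block and each library left out; DESeq2 on all genes with a count was added after the data were seen.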

Additional observations from a re-analysis of the deposited data

Results flagged for a closer look

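Among the 51 genes named by the rule, 102 sets of 4 libraries were examined for a library far from the other 3 of its group, and 10 such libraries were found. Chance marks about 1 set in 20. Vehicle replicate 4 was the library in 7 of the 10, and in each of the 7 it was the lowest of its group. It had 0.0696 CPM of Rpl31-ps9 and 134 CPM of its parent Rpl31. It had 1.6 CPM of Rps25-ps1 and 422 CPM of its parent Rps25. It also had 26.0 CPM of Rpl28-ps1, 558 CPM of Rps16 and 513 CPM of Rpl17. Dimethyl succinate replicate 4 was the highest of its group for Rps12-ps4, at 9.71 CPM, and for Rpl36a, at 302 CPM. Vehicle replicate 2 was the lowest of its group for Rpl19-ps1, at 0.637 CPM.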

How the results depend on the processing

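The count of copies called, 0 over 8 libraries in edgeR, became 1 in DESeq2 and 1 with no low-count filter, and ran from 0 to 2 when each library was left out in turn, with 2 without vehicle replicate 4. The count of all genes called, 0, became 4 in DESeq2, 6 with no filter and 1 with the replicate block, and ran from 0 to 28 over the libraries left out, with 28 without vehicle replicate 4. Parents called ran from 0 to 1, with 1 without that library. The cause was not tested. DESeq2 on all genes with a count called 0. The log2 difference of the Rpl17-ps10 to Rpl17 ratio ran from 0.58 to 0.69 with a library left out, each with an exact permutation p of 0.0571, the smallest such a design allows. In the exact sign-flip test of the replicate block it was 0.66, with a p of 0.125, also the smallest that test can give. Windows of 100 bases found in the parent had a median of 48.5%, where windows of 50 bases gave 70.1%. The median log2 fold change of the copies stayed below 0 in every alternative run, from -0.18 to -0.11.

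Some log2 fold changes that did not pass the test changed sign, and the value over 8 libraries in edgeR stands in parentheses at the first mention of each gene. Rps10-ps2 (-0.01) was at 0.0044 when scaled by library totals. In limma-voom Rpl31-ps9 (-0.40) was at 0.022, Rpl30-ps1 (0.28) at -0.038, Rpl28-ps1 (-0.00094) at 0.028 and Rps4x-ps (0.027) at -0.019. Rpl28-ps1 was at 0.011 when scaled by totals, 0.0002006 with no filter, 0.00032 with a stricter filter and 0.023 with the replicate block. With 1 library left out, the log2 fold change was for Rps10-ps2 from -0.074 to 0.025, for Rps16-ps2 (0.014) from -0.10 to 0.10, for Rpl14-ps1 (0.047) from -0.052 to 0.15, for Rps10-ps1 (0.083) from -0.055 to 0.16 and for Rpl21-ps8 (-0.084) from -0.20 to 0.019. It was for Rpl30-ps1 from -0.16 to 0.64, for Rpl28-ps1 from -0.16 to 0.069, for Rps4x-ps from -0.16 to 0.19, for Rps10 (-0.12) from -0.19 to 0.046 and for Rpsa (0.044) from -0.012 to 0.073. It was for Rps16 (0.10) from -0.043 to 0.17, for Rpl23a (-0.10) from -0.19 to 0.0023, for Rps19 (0.015) from -0.0400 to 0.074, for Rps13 (-0.037) from -0.0698 to 0.0016 and for Rpl10a (-0.069) from -0.11 to 0.023. It was for Rps25 (0.14) from -0.026 to 0.24, for Rpl34 (-0.065) from -0.15 to 0.022 and for Rpl31 (0.24) from -0.082 to 0.39. None of these values passed the adjusted test of its fit. Depth limits the copies with few counts: Rps13-ps4, with 164 counts, had an SE of 0.33 where Rpl17-ps10, with 24196, had 0.072.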
